A study of Mus musculus with 16 samples.

Results

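The liver of fasted male mice on a diet low in isoleucine was compared with that of fasted males on a control amino acid diet, gene by gene. The comparison used 8 of the 16 libraries in the series, 4 per diet, and 14920 of the 51912 genes in the count table, which were all those with enough counts to test. All mice were male, were kept at room temperature, started their diet at 10 weeks of age, ate it for 3 weeks and were 13 weeks old at harvest, after a 16 h overnight fast. The control group is called control and the other low isoleucine below. The labels name no strain, no genetic change and no isoleucine content. The other 8 libraries, 4 per diet, came from refed mice and were used to set the fasted difference beside the refed one and to estimate the spread.

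Isoleucine is a branched-chain amino acid that mammals cannot make, so the diet is its only source. The liver oxidises branched-chain amino acids only in part, because much of the first step takes place in muscle, and in a fast it turns to fatty acid oxidation, ketone body and glucose production. Levels of many liver proteins are also set by the pattern of growth hormone release, which differs between the sexes, by the circadian clock and by immune signals such as interferons.

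Depth was similar on both diets, at 28538526 to 32751668 counts per control library and 29460845 to 34002928 per low isoleucine library. Levels are CPM, that is counts scaled to a common library size by TMM, and errors of group means are SDs over n = 4 libraries. Hepatocyte markers were high in both groups, with control and low isoleucine means of 54142 and 80364 CPM for Alb, the gene for albumin, and none of the 8 hepatocyte markers tested was called. Low isoleucine library 1 stood apart from its group: on the first principal component of the 8 fasted libraries, which held 28.97% of their variance, it scored -23.6, within the control range of -33.8 to -1.58, while the other 3 low isoleucine libraries scored 24.98 to 41.02. The labels give every library of a group the same number in its name, and the meaning of that number is not stated, so its effect and that of diet cannot be told apart. They do not state that each library is a separate mouse, and the p-values measure only the spread between these libraries.

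Of 14920 genes tested, 49 were higher and 66 lower on low isoleucine, and these called genes were 0.771% of those tested (0.328% higher and 0.442% lower). A gene was called at an adjusted p under 0.05 by the edgeR quasi-likelihood test with Benjamini-Hochberg adjustment over all tested genes. Of the 115 called genes, 59 changed more than 2-fold and 19 more than 4-fold, and the median log2 fold change over all tested genes was 0.01. In 113 of the 115 every library of one diet lay above every library of the other, against 8.07% of all tested genes (3.67% higher and 4.4% lower), and Usp18 and Kcnk5 were the exceptions. Both counts used the same 8 libraries as the test and are descriptions of the called genes.

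The count depended on single libraries. It was 6 without control library 4, 7 without low isoleucine library 2, 14 without low isoleucine library 3, 24 without low isoleucine library 4, 25 without control library 2, 40 without control library 3 and 52 without control library 1. It was 203 without low isoleucine library 1 and 222 without control refed library 4, a library that stood apart from its group and entered this comparison through the estimate of the spread. Mup genes took 2.81% of its counts against 7.67% to 13.8% in the other control refed libraries. Without each of the other 7 refed libraries the count was 71 (low isoleucine refed library 1) to 123. The calls of 4 genes, Avpr1a, Cyp39a1, Slc16a7 and the provisionally named Gm3839, held in all 9 fits that left out 1 fasted library or control refed library 4, the fits meant below, and no called gene changed sign in any of them.

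**Figure D1:**
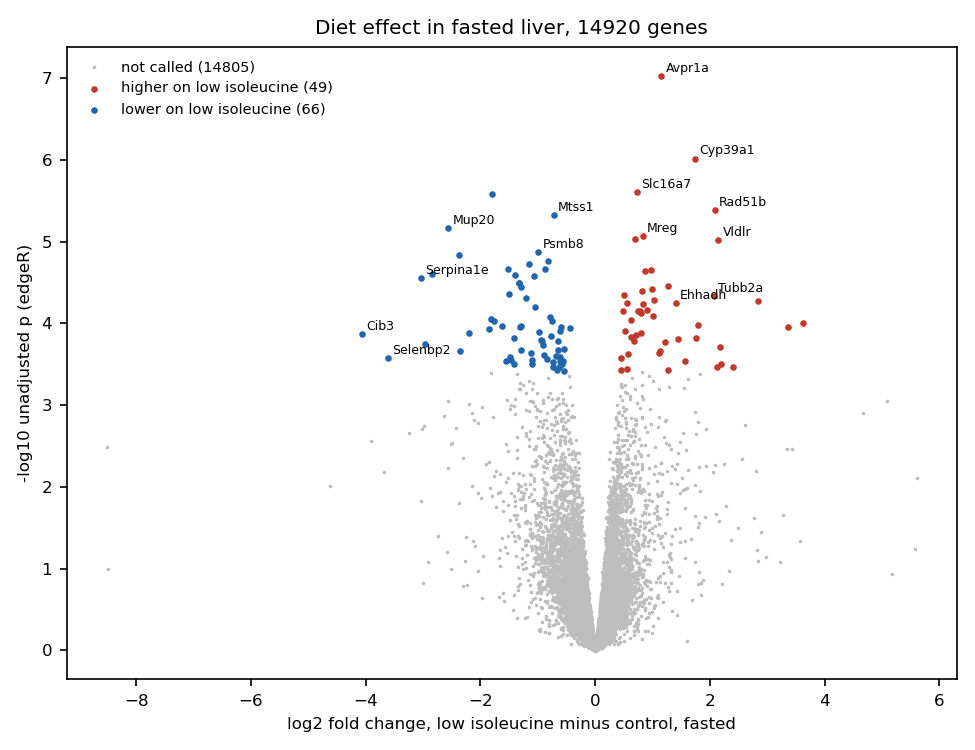
Diet effect of each of the 14920 tested genes in fasted liver, with the log2 fold change (low isoleucine minus control) on the horizontal axis and -log10 of the unadjusted p on the vertical axis. Red points are the 49 genes called higher, blue points the 66 called lower and grey points the rest, and Avpr1a lies highest.

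Avpr1a, the vasopressin V1a receptor through which vasopressin raises calcium in hepatocytes, had the smallest p of all genes (it and Slc16a7 were chosen to be shown after their values were seen). Avpr1a was counted at 7.96, 10.1, 9.19 and 9.46 CPM in the 4 control libraries and 21.2, 20.7, 19.1 and 20.6 CPM in the 4 low isoleucine libraries. All low isoleucine libraries were above all control libraries, and the log2 fold change was 1.15 (SE 0.13, adjusted p = 0.00139) by edgeR. Cyp39a1, which hydroxylates 24-hydroxycholesterol on the way to bile acids and lies on chromosome 17, 43667425 to 43751431, plus strand of GENCODE M21 (GRCm38), was at 31.2, 39.2, 36.2 and 29.2 CPM in the 4 control libraries and 117, 108, 121 and 110 CPM in the 4 low isoleucine libraries. Here too the 2 groups were far apart relative to their spread, and the log2 fold change was 1.75 (SE 0.23, adjusted p = 0.00717). Cyp39a1 was the 1 called gene of 26 tested genes of bile acid synthesis and transport, with a list median of 0.06. Slc16a7, a monocarboxylate carrier (MCT2), was at 85.4, 94.9, 91.5 and 73 CPM in the 4 control libraries and 155, 137, 145 and 138 CPM in the 4 low isoleucine libraries. The groups did not overlap, and the log2 fold change was 0.74 (SE 0.11, adjusted p = 0.00975).

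Vldlr, the very low density lipoprotein receptor, and Rad51b, a DNA repair gene, were also raised. Vldlr was at 3.41, 1.4, 1.73 and 0.738 CPM in the 4 control libraries and 8.37, 9.15, 7.41 and 7.24 CPM in the 4 low isoleucine libraries, a log2 fold change of 2.15 (SE 0.34, adjusted p = 0.0143). The lowest low isoleucine library for Vldlr held more than 2 times the highest control library. Rad51b was at 3.38, 1.54, 3.18 and 2.18 CPM in the 4 control libraries and 7.86, 14.7, 11.8 and 9.17 CPM in the 4 low isoleucine libraries, a log2 fold change of 2.08 (SE 0.31, adjusted p = 0.0117). All its control libraries were below all low isoleucine libraries. The call of Vldlr was lost in 1 of the 9 fits, without low isoleucine library 2 (adjusted p = 0.0514, edgeR), and that of Rad51b without control library 4 (adjusted p = 0.0516). Vldlr was the 1 called gene among 30 tested genes of lipid uptake, droplets and lipases, a list median of 0.13, and among 30 of the ATF4 and CHOP response, median 0.11. Rad51b was the 1 called gene of 22 of the cell cycle and replication, median -0.06.

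Of 32 tested genes of peroxisomal and omega oxidation, 3 were called, all higher, and the list median was 0.15. These routes shorten long fatty acids and hydroxylate their ends. Over all tested genes 0.328% were called higher. At an unadjusted p under 0.05, 7 of the 32 were higher and 3 lower, against 5.1% and 5.71% of all tested genes. Ehhadh, the peroxisomal bifunctional enzyme, was at 2322, 1194, 1932 and 2470 CPM in the 4 control libraries and 3446, 7148, 5610 and 4824 CPM in the 4 low isoleucine libraries. The low isoleucine libraries lay above all control libraries, and the log2 fold change was 1.41 (SE 0.26, adjusted p = 0.0235). Acnat2, a peroxisomal acyltransferase, was at 48.3, 36.5, 24.3 and 21.8 CPM in the 4 control libraries and 86.7, 147, 120.1 and 91.2 CPM in the 4 low isoleucine libraries, a log2 fold change of 1.77 (SE 0.35, adjusted p = 0.033). About 30% of its 50-base windows also occur in Acnat1, so reads could be split between them. Cyp4a14, a fatty acid omega-hydroxylase and a widely used readout of PPAR alpha activity, was at 9111, 7303, 7235 and 7312 CPM in the 4 control libraries and 11870, 15400, 12510 and 13710 CPM in the 4 low isoleucine libraries, a log2 fold change of 0.79 (SE 0.15, adjusted p = 0.0252). Cyp4a12a went the other way and did not pass, at -1.82 (SE 0.40, adjusted p = 0.0518). The 3 calls stayed in the fits without control library 1 and without low isoleucine library 1, and none of the 3 held in the fits without any other single fasted library (adjusted p 0.0562 to 0.118). Of 28 tested genes of mitochondrial oxidation and ketogenesis, 0 were called by edgeR, and the median was 0.14. At an unadjusted p under 0.05, 7 were higher and 0 lower, against 5.1% and 5.71% of all tested genes. In this list Pdk4, which turns off pyruvate dehydrogenase, came closest at 1.83 (SE 0.41, adjusted p = 0.052). The list left out Cpt1b, which was called higher at 1.27 (SE 0.28, adjusted p = 0.0488, edgeR). Its call held in 2 of the 9 fits, and 78.6% of its windows occur in Gm44502.

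Of 12 tested tubulins, the building blocks of microtubules, 6 were called, all higher, and the median was 0.78. Of the 24 pathway lists this one had the highest share of its tested members called, 50%, against 0.328% of all tested genes called higher. The lists were chosen with earlier results of these data known, so this rank is only a description. Tubb2a, a beta-tubulin, was at 20.3, 13.8, 11 and 18.2 CPM in the 4 control libraries and 32.2, 87.5, 87.7 and 59.7 CPM in the 4 low isoleucine libraries. Low isoleucine library 1 was the lowest of its group but was still above all control libraries, and the log2 fold change was 2.07 (SE 0.37, adjusted p = 0.0224). Tubb4b was at 54.3, 38.2, 42.6 and 56.9 CPM in the 4 control libraries and 71, 98, 112 and 109.8 CPM in the 4 low isoleucine libraries, a log2 fold change of 1.02 (SE 0.19, adjusted p = 0.0232). The others were Tuba1c at 0.87, Tuba4a at 0.84, Tuba1b at 0.82 and Tubb5 at 0.74. The sequences of these genes overlap: 66.7% of the 50-base windows of Tuba1b, 52.7% of Tuba1c, 49.6% of Tubb2a and 37.8% of Tubb4b occur elsewhere. Of the 6 calls 0 held without control library 2, control library 4 or low isoleucine libraries 2, 3 or 4, and 1 without control library 3.

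Carrier genes and a hormone-binding plasma protein were among the other genes called higher. Slc34a2, a sodium phosphate carrier, was at 0.391, 0.58, 0.483 and 0.321 CPM in the 4 control libraries and 2.02, 2.73, 1.99 and 1.1 CPM in the 4 low isoleucine libraries, a log2 fold change of 2.13 (SE 0.48, adjusted p = 0.0467). Serpina7, thyroxine-binding globulin, was at 15, 12.7, 23.3 and 8.56 CPM in the 4 control libraries and 66.2, 29.3, 36 and 45.5 CPM in the 4 low isoleucine libraries, a log2 fold change of 1.57 (SE 0.34, adjusted p = 0.0438). Unc93a2 was at 4.73, 3.34, 2.62 and 2.73 CPM in the 4 control libraries and 4.74, 11.6, 10.1 and 9.96 CPM in the 4 low isoleucine libraries, a log2 fold change of 1.44 (SE 0.30, adjusted p = 0.0332). The lowest low isoleucine library was above the highest control library for Slc34a2 and Serpina7. Low isoleucine library 1 of Unc93a2 was level with the highest control library, and 56.5% of its windows occur elsewhere. Slc16a1, another monocarboxylate carrier, had a log2 fold change of 0.99 (SE 0.18, adjusted p = 0.0209) and Mpc2, a subunit of the mitochondrial pyruvate carrier, of 0.50 (SE 0.09, adjusted p = 0.0224). Slc34a2 kept its call in 1, Serpina7 in 2, Unc93a2 in 3 and Slc16a1 and Mpc2 in 5 of the 9 fits that left out 1 library, and their highest adjusted p were 0.18 (without low isoleucine library 2), 0.145 (control library 2), 0.132 (low isoleucine library 2), 0.0731 (low isoleucine library 2) and 0.0764 (control library 4). Mpc2 was the 1 called gene of 24 tested genes of glycolysis and glucose entry, a list median of -0.04.

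Called genes with higher levels in female than in male mouse liver were all higher on low isoleucine, and called genes with higher levels in males were all lower. Of 21 tested female-biased genes 4 were called, all higher, with a median of 1.81. Of 34 tested male-biased genes 7 were called, all lower, with a median of -1.22. Over all tested genes 0.328% were called higher and 0.442% lower. At an unadjusted p under 0.05, 13 of the 21 were higher and 21 of the 34 were lower, against 5.1% and 5.71% of all tested genes. These list members and their classes were chosen with results of these data known. Slc22a27, of the organic ion carrier family, was at 0.64, 0.614, 0.276 and 0.16 CPM in the 4 control libraries and 1.87, 1.8, 2.44 and 1.56 CPM in the 4 low isoleucine libraries, a log2 fold change of 2.18 (SE 0.46, adjusted p = 0.0371). All low isoleucine libraries of Slc22a27 were above all control libraries, and 29.9% of its windows occur elsewhere. Sult3a1, a sulfotransferase, averaged 0.0671 ± 0.061 CPM on the control diet and 0.732 ± 0.28 CPM on low isoleucine, with 1 control library at 0. Cyp2c39, a cytochrome P450, averaged 6.19 ± 2.38 CPM on the control diet and 14.3 ± 1.91 CPM on low isoleucine. Both were also called, at log2 fold changes of 3.36 and 1.21.

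On the male side, Mup20, a major urinary protein, was at 7534, 9888, 14510 and 13300 CPM in the 4 control libraries and 3108, 1812, 1515 and 1255 CPM in the 4 low isoleucine libraries. No low isoleucine library of Mup20 reached the lowest control library, and the log2 fold change was -2.56 (SE 0.39, adjusted p = 0.0143). Mup genes together took 7.74% to 11.9% of counts in the control libraries and 3.41% to 7.08% in the low isoleucine libraries. Serpina1e, an alpha-1-antitrypsin gene, was at 4645, 4058, 5996 and 6373 CPM in the 4 control libraries and 926, 991, 311 and 335 CPM in the 4 low isoleucine libraries, a log2 fold change of -3.04 (SE 0.51, adjusted p = 0.0191). Selenbp2, a selenium-binding protein, was at 38.3, 67.8, 177 and 164 CPM in the 4 control libraries and 12, 10.4, 6.56 and 7.7 CPM in the 4 low isoleucine libraries, a log2 fold change of -3.61 (SE 0.75, adjusted p = 0.0428). The control libraries of Selenbp2 differed more than 4-fold among themselves. Cib3 was at 1.71, 11.3, 22.8 and 8.66 CPM in the 4 control libraries and 0.514, 0.207, 1.35 and 0.519 CPM in the 4 low isoleucine libraries, a log2 fold change of -4.07 (SE 0.79, adjusted p = 0.0314). Control library 1 for Cib3 was close to the low isoleucine range. Gstp1, a glutathione transferase, was at 511, 401, 453 and 899 CPM in the 4 control libraries and 149, 253, 184 and 189 CPM in the 4 low isoleucine libraries, a log2 fold change of -1.55 (SE 0.33, adjusted p = 0.0438). Gstp-ps, which is on none of the lists, was at 5.72, 4.71, 5.46 and 12.5 CPM in the 4 control libraries and 1.65, 1.55, 1.99 and 2.84 CPM in the 4 low isoleucine libraries, a log2 fold change of -1.81 (SE 0.35, adjusted p = 0.0284), and 71.1% of its windows occur in Gstp2, and 33.7% of the windows of Gstp1 do, so reads could be split among these genes. C6 and C8a, terminal complement components, were the remaining called male-biased genes, at -1.48 and -0.94. Windows shared with other copies made up 50.5% for Mup20, 34.6% for Serpina1e and 43.9% for Selenbp2. Of the 7 male-biased calls 0 held without control library 4 or without low isoleucine library 2 or 3, 1 without low isoleucine library 4, 2 without control library 2 or 3 and 3 without low isoleucine library 1. Of the 4 female-biased calls 0 held without control libraries 1, 3 or 4 or without low isoleucine libraries 2, 3 or 4, and 1 without control library 2. The growth hormone axis itself (16 tested genes) had 0 genes called, 2 higher and 2 lower at an unadjusted p under 0.05, with the receptor Ghr at -0.59 (SE 0.19, adjusted p = 0.189).

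**Figure D2:**
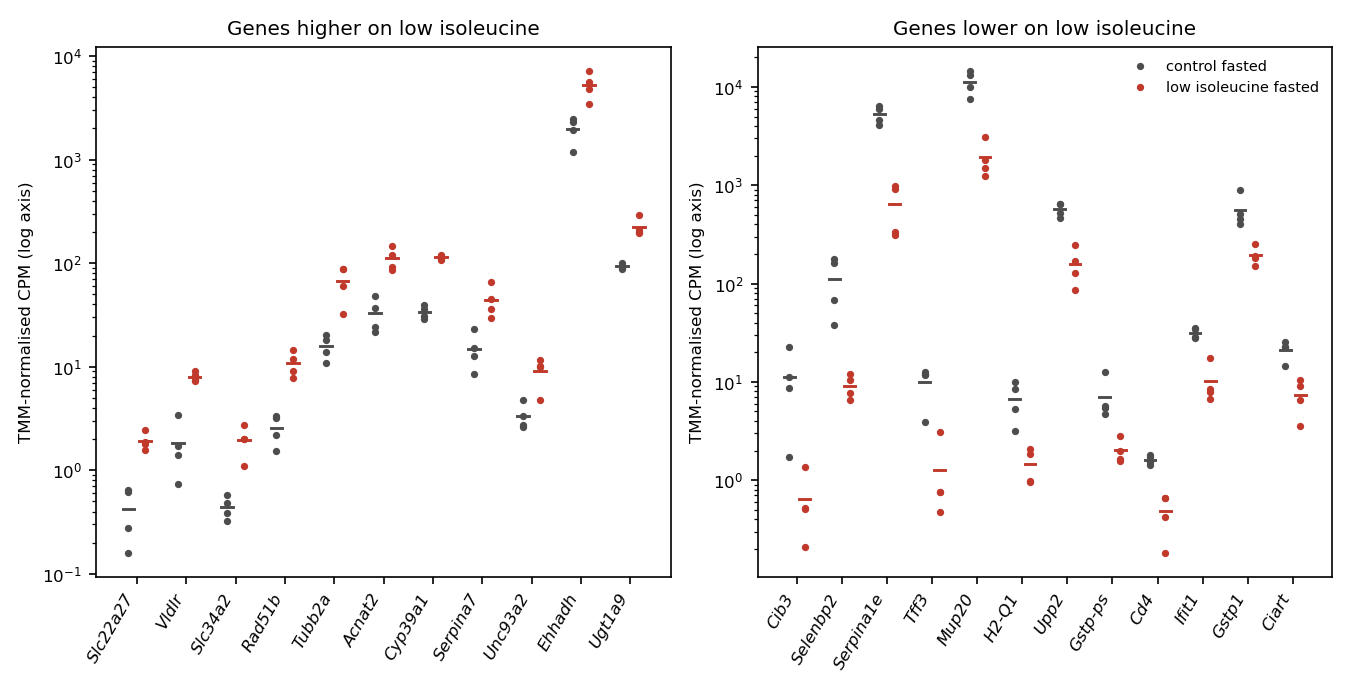
TMM-normalised CPM on a log axis of 11 higher and 12 lower genes chosen by size of change, one point per library (grey control, red low isoleucine) with short bars at the group means. No control library of Mup20 was below 7534 CPM, and no low isoleucine library was above 3108 CPM.

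Of 57 tested interferon-stimulated genes, the antiviral effectors switched on by interferon signalling, 12 were called, all lower (21.1%), the median was -0.70 and 55 of the 57 had a negative log2 fold change. At an unadjusted p under 0.05, 43 were lower and 0 higher. Over all tested genes 0.442% were called lower, 5.71% were lower at that threshold and 48.3% had a negative log2 fold change. Ifit1, which binds viral RNA, was at 34.5, 27.7, 28.3 and 35.5 CPM in the 4 control libraries and 17.7, 7.91, 6.65 and 8.55 CPM in the 4 low isoleucine libraries. Low isoleucine library 1 was the highest of its group but below all control libraries, and the log2 fold change was -1.63 (SE 0.32, adjusted p = 0.0294). Mx1, a dynamin-like antiviral GTPase, was at 4.9, 4.37, 4.42 and 4.52 CPM in the 4 control libraries and 2.79, 1.45, 1.48 and 1.25 CPM in the 4 low isoleucine libraries, a log2 fold change of -1.39 (SE 0.24, adjusted p = 0.0189). Oasl1, of the oligoadenylate synthetase family, was at 15.2, 16.5, 10.3 and 17.5 CPM in the 4 control libraries and 7.16, 8.22, 6.05 and 7.03 CPM in the 4 low isoleucine libraries, a log2 fold change of -1.06 (SE 0.19, adjusted p = 0.0189). The groups did not overlap for Mx1 or Oasl1. Irf7, the transcription factor that amplifies interferon production, averaged 43.2 ± 16 CPM on the control diet and 17.6 ± 1.26 CPM on low isoleucine, a log2 fold change of -1.29 (SE 0.27, adjusted p = 0.0388). Zbp1, Ifit3b, Ifi44, Oas1a, Xaf1, Usp18, Oas2 and Parp14 were also called, at -1.47, -1.41, -1.29, -1.20, -1.11, -0.93, -0.77 and -0.60. Of the 12 calls 0 held without control library 4 or without low isoleucine library 2, 3 or 4, 2 without control library 3, 3 without control library 1 and 5 without control library 2. Without low isoleucine library 1, 28 members of the list were called. The mean log2 level of the list was 0.31 below the control mean in low isoleucine library 1 and 0.87 to 0.96 below it in the other 3.

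Promoter windows of 3 called interferon-stimulated genes and of Ciart, whose values follow, are shown as examples that hold a motif searched for their list. Motifs were also searched in the peroxisomal, male-biased and female-biased lists. They run from 250 bases before to 50 after the transcript start in RefSeq (GRCm38.p6). Capitals mark the interferon-response motif, GAAA, any 2 bases and GAAA again, in the first 3, and the E-box CACGTG in the last. Both strands were searched, so the motif may be read as its reverse complement.
Ifit1 promoter (chr19:34640639-34640938, plus strand): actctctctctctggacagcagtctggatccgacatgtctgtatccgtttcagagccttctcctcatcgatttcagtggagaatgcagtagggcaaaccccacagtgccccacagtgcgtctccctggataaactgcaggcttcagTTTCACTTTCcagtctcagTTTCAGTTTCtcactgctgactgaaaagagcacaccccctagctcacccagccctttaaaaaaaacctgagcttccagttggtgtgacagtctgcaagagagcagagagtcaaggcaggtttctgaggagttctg
Ifit3b promoter (chr19:34607707-34608006, plus strand): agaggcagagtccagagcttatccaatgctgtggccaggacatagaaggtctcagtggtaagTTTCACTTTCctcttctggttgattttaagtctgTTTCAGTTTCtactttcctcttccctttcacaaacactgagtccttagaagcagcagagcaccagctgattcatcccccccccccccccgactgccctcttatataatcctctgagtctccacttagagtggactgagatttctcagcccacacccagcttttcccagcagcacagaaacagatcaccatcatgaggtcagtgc
Oas1a promoter (chr5:120907476-120907775, minus strand): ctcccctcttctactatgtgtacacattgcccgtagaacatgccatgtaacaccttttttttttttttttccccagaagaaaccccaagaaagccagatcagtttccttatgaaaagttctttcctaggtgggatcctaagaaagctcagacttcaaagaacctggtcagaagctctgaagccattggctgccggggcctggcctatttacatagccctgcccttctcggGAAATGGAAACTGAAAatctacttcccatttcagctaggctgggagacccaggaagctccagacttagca
Ciart promoter (chr3:95882179-95882478, minus strand): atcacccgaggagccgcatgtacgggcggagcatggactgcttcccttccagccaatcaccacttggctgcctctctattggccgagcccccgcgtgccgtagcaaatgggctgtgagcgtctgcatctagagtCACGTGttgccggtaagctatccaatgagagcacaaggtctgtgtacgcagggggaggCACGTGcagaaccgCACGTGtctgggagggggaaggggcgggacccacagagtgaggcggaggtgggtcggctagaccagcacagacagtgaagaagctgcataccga

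The interferon-response motif is held by 3.44% of the 32851 RefSeq promoters, in at least 1 promoter of 3.99% of the 27025 genes with an entry, and of 23 of the 42 tested interferon-stimulated genes with an entry (54.8%). Of the 7 called members with an entry, 3 had it, namely Ifit1, Ifit3b and Oas1a, whose 2 copies overlap. CACGTG is held by 7.15% of promoters, in at least 1 promoter of 8.09% of genes. Of the 20 tested clock and output genes with an entry, 5 had it (25%). TTATGTAA, the other motif searched for that list, was in 1 of the 20 and in 0 of the 3 called. Ciart had 3 copies, ending 111, 53 and 39 bases before the start, while Usp2 and Cry2 had none in this window. A match describes the letters of the window and says nothing of binding in these livers.

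Of 27 tested genes of class I antigen presentation and the immunoproteasome 5 were called, all lower, and the median was -0.35. Over all tested genes 0.442% were called lower. At an unadjusted p under 0.05, 15 of the 27 were lower and 0 higher, against 5.71% and 5.1% of all tested genes. H2-Q1, a non-classical class I gene, was at 3.16, 8.39, 9.95 and 5.29 CPM in the 4 control libraries and 2.06, 0.967, 1.87 and 0.978 CPM in the 4 low isoleucine libraries, a log2 fold change of -2.19 (SE 0.44, adjusted p = 0.0308). Psmb8, an immunoproteasome subunit, was at 15.8, 15.7, 14.8 and 20.5 CPM in the 4 control libraries and 9.69, 7.88, 7.83 and 8.25 CPM in the 4 low isoleucine libraries, a log2 fold change of -0.99 (SE 0.16, adjusted p = 0.018). All low isoleucine libraries were below all control libraries for both. Nlrc5, the class I transactivator, was called at -0.59, H2-Q7 at -0.68 and H2-Q6 at -0.58. Between 15% and 32% of the windows of H2-Q1, H2-Q6 and H2-Q7 occur elsewhere. Of the 5 calls 0 held without control library 4 or without low isoleucine library 2 or 3, 1 without control library 2 or low isoleucine library 4, 2 without control library 1, 3 without control library 3 and 4 without low isoleucine library 1. Of 7 class II genes, which present antigen to helper T cells, 0 were called by edgeR, and the median was -0.94. All 7 were lower at an unadjusted p under 0.05, against 5.71% of all tested genes. In all 7 the groups did not overlap, against 4.4% of all tested genes that were lower without overlap. Cd74, the invariant chain, was at -0.92 (SE 0.25, adjusted p = 0.108).

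Most Kupffer cell and lymphocyte markers also had negative log2 fold changes. For the interferon list the mean log2 differences from control were -0.31, -0.95, -0.96 and -0.87 in low isoleucine libraries 1 to 4. For Kupffer cell and macrophage markers they were -0.67, -0.43, -0.07 and -0.73, and for lymphocyte markers -0.05, -0.19, -0.61 and -0.96. Of 13 Kupffer cell and macrophage markers 0 were called by edgeR, 6 were lower at an unadjusted p under 0.05 and 12 had a negative log2 fold change, with a median of -0.52. Over all tested genes 5.1% were higher and 5.71% lower at that threshold, and 48.3% had a negative log2 fold change. The summed level of the 13 markers was 385 to 499 CPM in the control and 242 to 354 CPM in the low isoleucine libraries, and none of the 13 was at 0. Of 14 tested lymphocyte markers Cd4, the helper T cell coreceptor, was the 1 called. Cd4 was at 1.53, 1.81, 1.73 and 1.41 CPM in the 4 control libraries and 0.661, 0.656, 0.421 and 0.183 CPM in the 4 low isoleucine libraries, a log2 fold change of -1.76 (SE 0.35, adjusted p = 0.0286). No low isoleucine library reached a control library, and the call held in 2 of the 9 fits without 1 library, with an adjusted p up to 0.108 (without low isoleucine library 3). Of the 14, 13 had a negative log2 fold change, 3 were lower and 0 higher at an unadjusted p under 0.05, and the median was -0.38. The summed lymphocyte level was 10.9 to 14.7 CPM in the control and 5.07 to 17 CPM in the low isoleucine libraries. The part of these cells in the interferon and class I and II results was not tested, and in bulk tissue fewer cells of a type and less RNA per cell cannot be told apart. Other marker lists had medians of -0.08 (sinusoidal endothelial, 10 genes), -0.14 (stellate and fibroblast, 11), -0.10 (cholangiocyte, 6), 0.01 (neutrophil, 3) and 1.00 (erythroid, 5). Hbb-bs, a beta-globin chain, was the 1 called erythroid gene, at 87.4 ± 7.48 CPM on the control diet and 175 ± 64.6 CPM on low isoleucine, and it was highest in low isoleucine library 1. Its call held in 4 of the 9 fits, with an adjusted p up to 0.0898 (without control library 4), and 53.2% of its windows occur in Hbb-bt. Of the 5 erythroid genes 4 were higher and 1 lower at an unadjusted p under 0.05. The lower one was Alas2, the heme synthesis enzyme of red cell precursors, which did not pass, at -1.10 (SE 0.27, adjusted p = 0.081). The summed erythroid level was 198 to 252 CPM in the control and 246 to 636 CPM in the low isoleucine libraries. Too few counts to test were found for Cftr, Cd8a, Cd8b1, Ncr1 and 6 of the 9 neutrophil markers, among others.

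Among complement genes, C9 and C2 were called of 47 tested acute phase, complement and coagulation genes, both lower, and the list median was -0.15. Over all tested genes 0.442% were called lower. At an unadjusted p under 0.05, 14 of the 47 were lower and 3 higher, against 5.71% and 5.1% of all tested genes. C6 and C8a, given above with the male-biased genes and not among the 47, were called lower as well. C9, a pore-forming component, was at 369.8, 316, 451 and 474 CPM in the 4 control libraries and 157, 179.8, 126 and 109.5 CPM in the 4 low isoleucine libraries. The groups did not overlap, and the log2 fold change was -1.49 (SE 0.27, adjusted p = 0.0224). C2, of the classical pathway, averaged 103 ± 14 CPM on the control diet and 67.8 ± 9.47 CPM on low isoleucine, a log2 fold change of -0.61 (SE 0.12, adjusted p = 0.0308). Of the windows of C2 38.7% occur in Gm20547. Saa2 and Saa3, acute phase serum amyloid proteins, did not pass, at -2.64 (SE 0.67, adjusted p = 0.0981) and -1.32 (SE 0.32, adjusted p = 0.0672). Of the 2 calls 0 held without control library 3 or 4 or without low isoleucine library 2, 3 or 4, and 1 without control library 2.

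Of 25 tested genes of the circadian clock and its output 3 were called, all lower, and the median was -0.20. Over all tested genes 0.442% were called lower. At an unadjusted p under 0.05, 2 of the 25 were higher and 10 lower, against 5.1% and 5.71% of all tested genes. Ciart, a repressor in the core clock on chromosome 3, 95878503 to 95882251, minus strand of GENCODE M21, was at 22.6, 25.4, 14.4 and 22.5 CPM in the 4 control libraries and 6.57, 10.3, 3.58 and 9.11 CPM in the 4 low isoleucine libraries. All low isoleucine libraries of Ciart were below the control range, and the log2 fold change was -1.52 (SE 0.26, adjusted p = 0.0188). Usp2, a deubiquitinase with a daily rhythm, was at 34.9, 35.7, 25.3 and 36.6 CPM in the 4 control libraries and 13.3, 11.4, 9.78 and 18.2 CPM in the 4 low isoleucine libraries, a log2 fold change of -1.33 (SE 0.23, adjusted p = 0.0202). Cry2, a cryptochrome repressor, had a log2 fold change of -0.57 (SE 0.13, adjusted p = 0.044). Arntl (BMAL1), which drives these outputs, did not pass, at 1.23 (SE 0.33, adjusted p = 0.0995), nor did Per3 at -1.25 (SE 0.29, adjusted p = 0.0648) and Dbp at -0.85 (SE 0.22, adjusted p = 0.0995). Of the 3 calls 0 held without control library 2 or 4, 1 without low isoleucine library 2 or 3 and 2 without control library 1, control library 3 or low isoleucine library 4. The hour at which each liver was taken is not given in the labels.

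Uridine breakdown, a trefoil peptide and glucuronidation supplied further called genes. Upp2, which breaks down uridine in liver, was at 463, 518, 640.5 and 652 CPM in the 4 control libraries and 249.5, 129, 87 and 168 CPM in the 4 low isoleucine libraries, a log2 fold change of -1.84 (SE 0.36, adjusted p = 0.0301). It had been placed on the list of other amino acid catabolism and the urea cycle, although its substrate is uridine. Upp2 was the 1 called gene of the 44 tested on that list, where the median was -0.21. Tff3, a trefoil peptide, was at 3.91, 12.6, 11.8 and 11.9 CPM in the 4 control libraries and 0.477, 0.76, 3.07 and 0.764 CPM in the 4 low isoleucine libraries, a log2 fold change of -2.96 (SE 0.60, adjusted p = 0.0347). Control library 1 was the lowest of its group and low isoleucine library 3 the highest of its own, and they did not overlap. At the Ugt1a locus 1 gene was called higher and 2 were called lower. Ugt1a9, a glucuronosyltransferase, was at 93.6, 90.7, 100 and 88.4 CPM in the 4 control libraries and 294, 211, 200.5 and 196 CPM in the 4 low isoleucine libraries, a log2 fold change of 1.27 (SE 0.23, adjusted p = 0.0204). Ugt1a6a and Ugt1a6b were called lower, at -0.62 and -0.67. Transcripts of this locus share their last exons, and 62% of the windows of Ugt1a9, 52.1% of those of Ugt1a6a and 79.8% of those of Ugt1a6b occur in other genes of the annotation. Ugt1a9, Ugt1a6b and Ces2a, a carboxylesterase at -0.82, were the 3 called genes of 38 tested phase II and NRF2 target genes, median -0.04. Cyp2c68, at 0.91, was the 1 called gene of 37 tested cytochrome P450 and nuclear receptor genes, median -0.16, and 43.3% of its windows occur elsewhere. Of the 9 fits without 1 library, the call of Upp2 held in 2, Tff3 in 3, Ugt1a9 in 5, Ugt1a6a and Ugt1a6b in 2, Ces2a in 4 and Cyp2c68 in 3. Their highest adjusted p were 0.118, 0.139, 0.0684, 0.163, 0.181, 0.0729 and 0.0851.

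**Figure D3:**
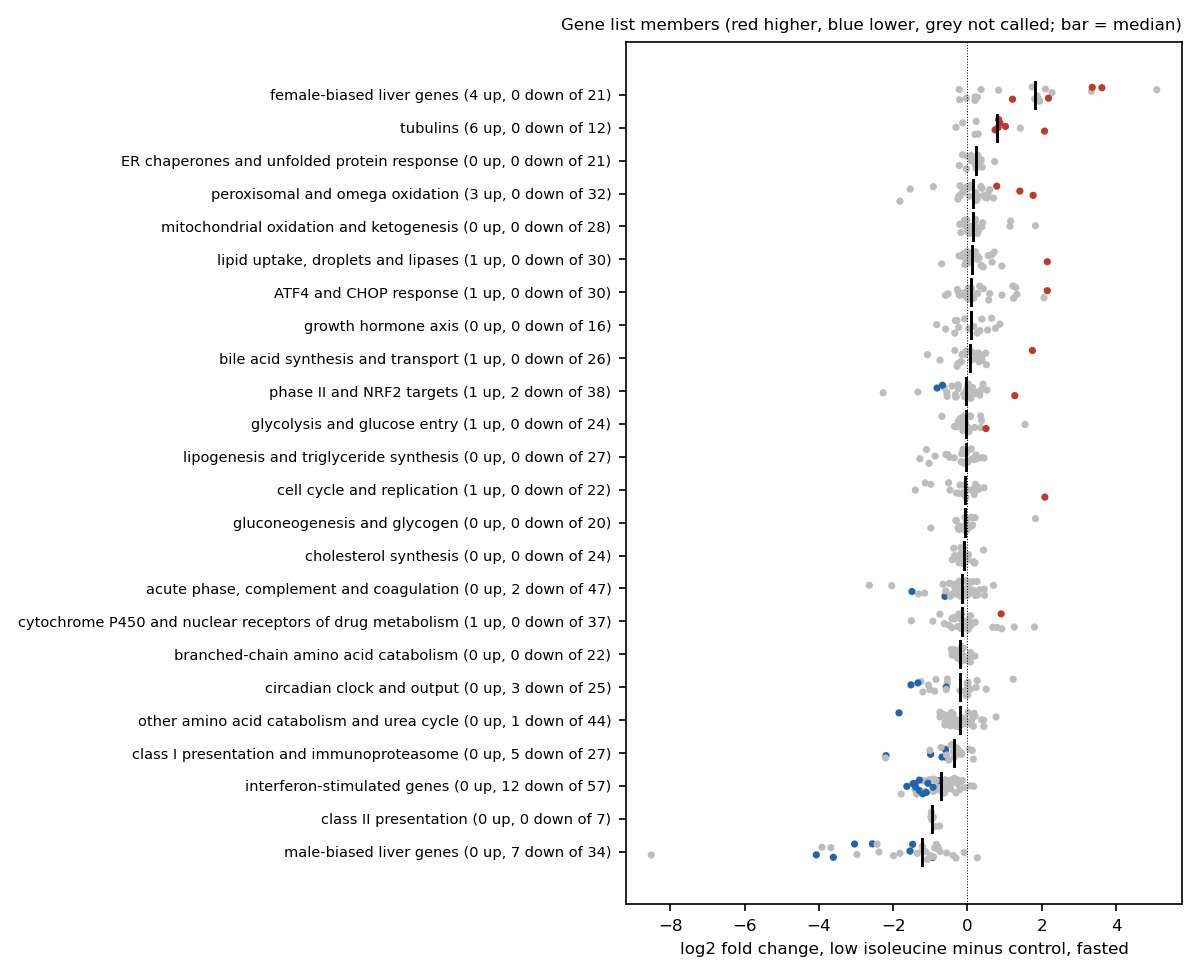
Log2 fold change (low isoleucine minus control, fasted) of every tested member of 24 gene lists, with red points called higher, blue points called lower, grey points not called and black bars at the medians. Medians ran from -1.22 for male-biased liver genes to 1.81 for female-biased liver genes.

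Lists with 0 called genes by edgeR included branched-chain amino acid catabolism, the breakdown route of isoleucine itself. In that list 22 genes were tested, and the median was -0.19. At an unadjusted p under 0.05, 7 were lower and 0 higher, against 5.71% and 5.1% of all tested genes. Ivd, which oxidises isovaleryl-CoA, was at -0.44 (SE 0.10, adjusted p = 0.0664) and Pcca, of propionyl-CoA carboxylase, at -0.42 (SE 0.11, adjusted p = 0.0981). Lipogenesis and triglyceride synthesis (27 genes), cholesterol synthesis (24) and gluconeogenesis and glycogen (20) had medians of -0.05, -0.10 and -0.07. At an unadjusted p under 0.05, 1 and 3 lipogenic genes were higher and lower, 0 of the cholesterol genes were, and 1 and 3 of the gluconeogenesis genes were. ER chaperones and the unfolded protein response (21 genes) had a median of 0.23, with 2 genes higher and 0 lower at that threshold.

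**Figure D4:**
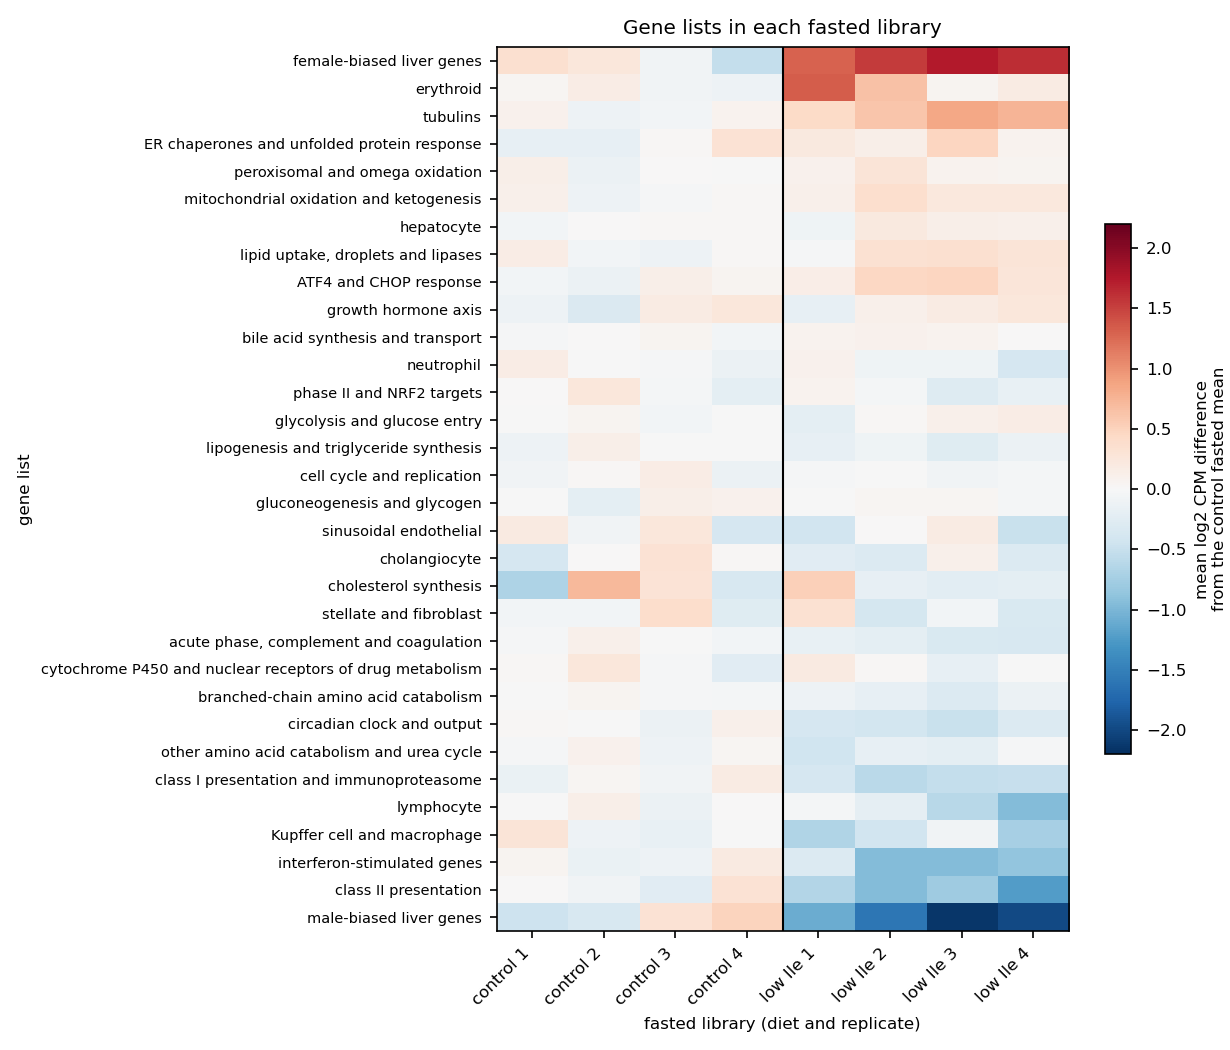
Mean log2 CPM of each gene list in each fasted library, as the difference from the control fasted mean (red higher, blue lower). For male-biased genes the low isoleucine libraries lay 1.09 to 2.14 below, and the control libraries between -0.46 and 0.49.

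Set beside the diet difference in refed mice, 98 of the 115 genes had the same sign. The 115 were chosen by their fasted values, so their medians are descriptions: the median log2 fold change of the 49 higher genes was 0.99 fasted and 0.29 refed, and that of the 66 lower genes -1.08 and -0.35. In refed mice 54 of the 115 were past an unadjusted p of 0.05, counted in either direction, against 9.76% of all tested genes. There 26 genes were called (0.174%), and 10 of them were among the 115. These values include control refed library 4, which stood apart, and without it 89 genes were called in refed mice, 14 of them among the 115. Without low isoleucine refed library 1 the refed count was 3, without library 2 of that group 6, without library 4 of that group 9 and without control refed library 3 it was 17. Mup20, Vldlr, Cyp39a1, Avpr1a and H2-Q1 were 5 of those 10. The test of the difference between the 2 feeding states called 0 of 14920 genes by edgeR, 36 by the DESeq2 Wald test and 0 by limma-voom. In this test edgeR put 928 genes (6.22%) past an unadjusted p of 0.05. Of these, 66 were among the 115, which were chosen by their fasted values. Without low isoleucine fasted library 1, edgeR called 1 gene. Ciart did not pass that test (unadjusted p = 3.82e-05, adjusted p = 0.285, edgeR), and its log2 fold change in refed mice was 0.49.

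**Figure D5:**
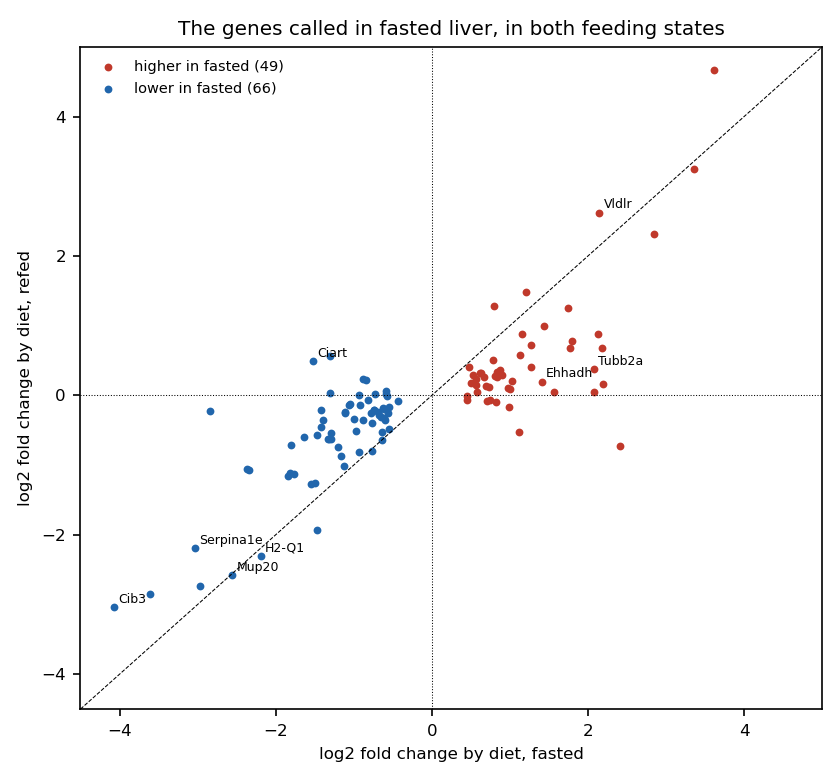
Log2 fold change by diet of the 115 genes called in fasted liver, with fasted on the horizontal and refed on the vertical axis. Red genes were higher and blue genes lower in fasted mice, the dashed line marks equal effects, and Mup20 (-2.56 and -2.58) lies close to it while Ciart (-1.52 and 0.49) does not.

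The authors' deposited table for this comparison held 14211 genes and called 91, of which 72 were among the 115, that is 79.1% of theirs and 62.6% of those called here. None of the shared calls had the opposite sign in the authors' deposited table. Several genes described above did not pass there, by that table's adjusted p. They included Ciart (0.176), Usp2 (0.0821), Cry2 (0.0627), Ehhadh (0.108), Cyp4a14 (0.0679), Slc16a1 (0.105), Hbb-bs (0.216), Ifit1 (0.0679) and Selenbp2 (0.0513). The reverse also occurred. Cyp4a12a (0.0175), Pdk4 (0.0358), Alas2 (0.036) and Saa3 (0.0406) passed there and did not pass here.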

How the data were processed

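Poly-A enriched, stranded RNA libraries were made from liver and lanes were merged per sample, per the labels' protocols. The authors deposited RSEM expected counts per gene, of which 10.2% of values were not whole, and tables of log2 fold changes, F scores and p-values. Per the submitters' processing notes, R 3.5.3, limma and edgeR were used, in roles that are not recorded. For the aligner, the build and the annotation, the entry is: not given in the sources used here. Expected counts were rounded, filtered by filterByExpr (minimum count 10, minimum total 15), scaled by TMM and fitted with a robust quasi-likelihood model of 1 mean per group over all 16 libraries in edgeR 4.0.16 (R 4.3.3), with Benjamini-Hochberg adjustment over 14920 genes. The standard error is the absolute log2 fold change over the square root of F. DESeq2 1.42.0 and limma 3.58.1 voom were alternatives. Members and lists (24 pathway lists and 8 marker lists) were chosen with earlier results of these data known, and each list is described by counts and medians. Values per library are given for the 12 higher and 12 lower called genes of largest change with a mean of at least 1 CPM, a non-provisional symbol and no overlap between groups, and for called list members. Of the 12 higher genes 1 is not reported here. List members that did not pass were named from the 6 of smallest p in their list. Library depth ran from 24368616 to 34002928 counts. Positions and read sharing (50-base windows) are from GENCODE M21, which may not be the annotation counted against.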

Additional observations from a re-analysis of the deposited data

Results flagged for a closer look

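A single library stood apart from the other 3 of its group in 9 of the 104 gene and group combinations checked, over 52 genes, where chance alone marks about 1 in 20. In the control libraries these were Cyp4a14 in library 1 (9111 CPM, the others 7235 to 7312), Gstp-ps in library 4 (12.48, the others 4.709 to 5.721), Tff3 in library 1 (3.909, the others 11.81 to 12.59) and Usp2 in library 3 (25.31, the others 34.86 to 36.59). In the low isoleucine libraries they were Ifi44 in library 1 (4.223 CPM, the others 1.934 to 2.318), Mx1 in library 1 (2.791, the others 1.253 to 1.475), Ugt1a9 in library 1 (293.6, the others 196.2 to 210.6), Tff3 in library 3 (3.071, the others 0.4774 to 0.7638) and Mpc2 in library 3 (150.2, the others 171.2 to 171.4). Of the 5 in low isoleucine libraries 3 fell in library 1, which also stood apart on the first principal component.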

How the results depend on the processing

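The count of called genes was 115 and stayed within 1.5 times under DESeq2 size factors (117), upper-quartile scaling (112), library size alone (108), no filter (83), at least 1 CPM in 4 libraries (113), limma-voom (110) and a non-robust fit (119). It rose to 361 with the DESeq2 Wald test, which shared 114 genes with the 115, and to 193 when the fit used the fasted libraries alone. It was 0 against a fold threshold of 1.5. Leaving out 1 of the 16 libraries gave 6 to 222, and the refed count of 26 became 3 to 89 without 1 of the 8 refed libraries. Leaving out refed libraries other than control refed library 4 was chosen after seeing the data. With a replicate block, 77 genes were called and 72 were among the 115. Deviations from the group mean in same-numbered fasted libraries of the 2 diets correlated at -0.114, 0.0535, -0.195 and 0.213. Those of differently numbered libraries correlated at -0.3 to 0.322. With 4 libraries per group these values cannot show whether the numbers pair the libraries, so the block is given beside the main fit. The feeding state difference called 0 to 1 genes when 1 library was left out, and 36 with the DESeq2 Wald test. None of the 115 called genes changed sign in the settings where each was refitted, and 23 of the 32 list medians kept theirs. The other 9, all within 0.104 of 0, changed sign in at least 1 setting: bile acid synthesis and transport, cell cycle and replication, cholangiocyte, cholesterol synthesis, glycolysis and glucose entry, growth hormone axis, neutrophil, phase II and NRF2 targets and sinusoidal endothelial. With 4 libraries per diet, the calls rest on few libraries: of 115 genes 4 kept their call in all 9 fits without 1 fasted library or control refed library 4. The cause of these changes was not tested.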
